A study of Mus musculus with 6 samples.

Results

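Caveolins, cavins and the proteins that bind their coat were followed in C2C12, a skeletal muscle line of the mouse, with and without small interfering RNA against Cd36. The set holds 10 genes, taken by symbol from the 55450 genes of the deposited table: the caveolins Cav1, Cav2 and Cav3, the cavins Cavin1, Cavin2, Cavin3 and Cavin4, the ATPase gene Ehd2, and Pacsin2 and Pacsin3. All 10 averaged 1 FPKM or more over the 6 libraries and were among the 11796 genes tested. RNA-seq was available for 3 samples transfected with siCD36 and 3 with the control RNA siCont, each used 72 h after 20 nM siRNA. The labels give the cells as myoblasts of strain C57BL/6, whereas the study's text speaks of myotubes. That text names C57BL/6 for its diet-fed mice and gives no strain for C2C12. Neither source says which of its CD36 duplexes a sample received, or whether the 3 samples of a group came from separate cultures, and a p-value here covers no more than the spread among the libraries, possibly a technical one. Both groups are transfected cells of 1 line, and no untransfected sample was analysed here.

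Caveolae are small flask-shaped pits of the plasma membrane. Caveolins sit in the inner leaflet as oligomers and bind cholesterol, cavins form a coat on the cytosolic side, and EHD2 with the F-BAR proteins PACSIN2 and PACSIN3 shapes and holds the neck. In skeletal muscle the main caveolin is CAV3, CAVIN4 is a muscle-restricted cavin and PACSIN3 is abundant. Muscle caveolae buffer membrane tension, take part in T-tubule formation, and have been placed near fatty acid and insulin receptors at the cell surface. CAV3 mutations cause human muscle disease.

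The libraries held 56907806 to 71878709 counts, and the tested genes carried 99.1% to 99.3% of them. Cd36, the fatty acid receptor targeted by the siRNA, stood at 0.573, 0.456 and 0.409 CPM (TMM-scaled counts on a common library size) in siCD36 replicates 1, 2 and 3 and at 17.5, 18.7 and 19.0 CPM in siCont. Every library therefore went with its label. All 16 myotube markers averaged at least 1 FPKM over the 6 libraries. Of 9 markers of myoblasts and cycling cells, 4 averaged under 1 FPKM.

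Among the 10 coat genes, 2 fell and 0 rose with siCD36 at an adjusted p under 0.05 in edgeR's quasi-likelihood test, and 8 did not pass. Across all genes tested, 3.06% fell and 2.20% rose by the same rule. The genes that fell were Cav3 and Cavin4, the muscle caveolin and the muscle cavin. The median log2 fold change of the 10 genes was -0.15, and that of all genes tested was 0.00. The groups did not overlap in CPM for 5 of the 10 genes, Cav1, Cav3, Cavin4, Pacsin2 and Pacsin3, beside 32.4% of all genes tested. In bulk RNA, fewer cells of a type and less RNA per cell cannot be told apart.

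**Figure D1:**
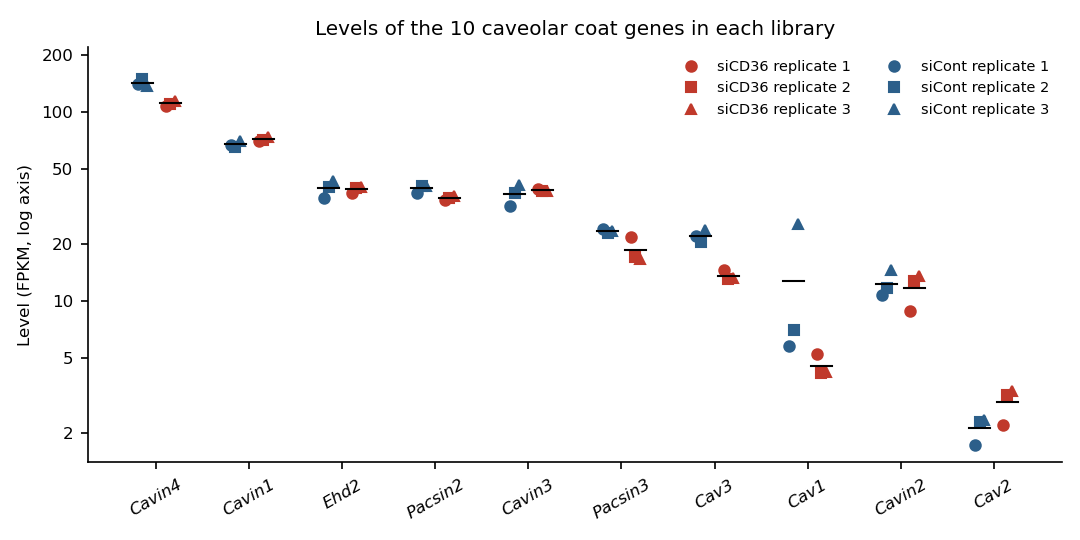
Level of each coat gene in FPKM on a log axis, with 1 point per library and the genes ordered by their siCont mean. Cavin4 lies highest in both groups, the Cav3 and Cavin4 points of siCD36 lie below those of siCont, and the Cav1 point of siCont replicate 3 lies apart from the other 5.

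On the length-corrected FPKM scale, which allows levels of different genes to be set side by side, Cavin4 was the highest member at 142 ± 5.67 FPKM in siCont (SD, n = 3). Cavin1, the cavin without which caveolae do not form, followed at 67.2 ± 2.65 FPKM. The next levels were those of Ehd2 (39.5 ± 4.16), Pacsin2 (39.4 ± 2.08) and Cavin3 (36.7 ± 4.64 FPKM), which lay within their spread of each other. Pacsin3 (23.4 ± 0.523) and Cav3 (22.1 ± 1.60 FPKM) overlapped as well. Cav1 had 12.7 ± 11.0 FPKM, a mean set by 1 library, Cavin2 had 12.3 ± 1.97 FPKM, and Cav2 was lowest at 2.12 ± 0.336 FPKM. Thus the muscle cavin exceeded the general cavins, and Cav3 was the highest caveolin in 5 of the 6 libraries.

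In siCD36 the order at the top was the same, with Cavin4 at 111 and Cavin1 at 71.7 FPKM. Ehd2 (39.0) and Cavin3 (38.5 FPKM) again overlapped, ahead of Pacsin2 at 35.0 FPKM. Pacsin3 had 18.5, Cav3 13.6, Cavin2 11.7, Cav1 4.53 and Cav2 2.92 FPKM. Among the last of these, the Cav3 and Cavin2 libraries overlapped.

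Cav3 lies on the plus strand of chromosome 6 from 112459505 to 112472872, and Cavin4 on the plus strand of chromosome 4 from 48663514 to 48673502. These are coordinates of the deposited table, whose build was not given, and both genes have the same ones in GENCODE M21 (GRCm38). Since Cav3 and Cavin4 were the members that fell, the 250 bases before their annotated starts are shown, from RefSeq on GRCm38.p6. Capitals mark E-boxes (CANNTG, the core to which MyoD-family muscle factors bind) and a TATAAA match. In Cav3 they mark CATGTG, 174 to 169 bases before the start, and CAGCTG, 106 to 101 bases before it. In Cavin4 they mark CACTTG, 39 to 34 bases before the start, and TATAAA, 30 to 25 bases before it.
Cav3: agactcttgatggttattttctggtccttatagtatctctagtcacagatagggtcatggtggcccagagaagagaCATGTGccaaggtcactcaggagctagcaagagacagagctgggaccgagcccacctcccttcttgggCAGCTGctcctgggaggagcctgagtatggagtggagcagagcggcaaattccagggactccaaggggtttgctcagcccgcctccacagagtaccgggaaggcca
Cavin4: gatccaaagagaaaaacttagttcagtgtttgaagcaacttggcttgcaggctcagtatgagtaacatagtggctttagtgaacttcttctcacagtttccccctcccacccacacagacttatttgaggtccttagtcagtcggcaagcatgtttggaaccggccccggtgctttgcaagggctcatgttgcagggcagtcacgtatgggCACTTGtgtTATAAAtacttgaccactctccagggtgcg
Both strands of the 250-base windows were searched, CAGCTG being also a CANNTG match. Among 27025 mouse promoters, 66.0% held CANNTG, 12.8% CAGCTG and 13.0% TATAAA. A promoter was listed for 9 members, Cavin3 having no entry, and 6 of these 9 held CANNTG. The CAGCTG match occurred in Cav3 and Ehd2, and TATAAA in Cav1 and Cavin4. MEF2 sites, present in 3.01% of all promoters, and CArG boxes, present in 1.4%, had no match in the 9 windows. These matches describe the letters in the windows only.

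Cav3, the caveolin that builds muscle caveolae, had 19.1, 16.8 and 16.7 CPM in siCD36 and 30.1, 26.7 and 30.3 CPM in siCont. All siCD36 libraries were lower than all siCont libraries, on 1177 to 1267 raw counts against 1616 to 1758. The group means were 17.5 ± 1.37 and 29.1 ± 2.03 CPM (SD, n = 3). Cav3 fell by 0.73 on the log2 scale (95% interval -0.98 to -0.48, standard error 0.102), with an adjusted p of 0.0223 in edgeR. The call held without siCD36 replicate 1 (adjusted p = 0.0227) and was lost without each of the others. Without siCD36 replicates 2 and 3 the adjusted p was 0.107 and 0.0685. Without siCont replicates 1, 2 and 3 it was 0.0683, 0.0820 and 0.0667. The log2 fold changes of these fits lay between -0.79 and -0.69. Among all genes tested, 1081 were called without siCD36 replicate 1 and 20 to 144 with another library left out.

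Cav1 and Cav2 lie side by side on chromosome 6, Cav2 from 17281185 to 17289115 and Cav1 from 17306335 to 17341324, both on the plus strand and 17219 bases apart. Cav1 encodes the caveolin of most non-muscle cells, and Cav2 a partner that assembles with it. Cav1 had 20.5, 15.8 and 15.9 CPM in siCD36 and 23.7, 27.2 and 96.6 CPM in siCont. The groups did not overlap, but siCont replicate 3 stood at 3.55 times the highest of the other 5 libraries. By that ratio Cav1 ranked 2 of the 11796 genes tested for this library. The estimate was -1.50 on the log2 scale (SE 0.552, 95% interval -2.82 to -0.17) and did not pass (adjusted p = 0.156, unadjusted p = 0.0325, edgeR). Without siCont replicate 3 it was -0.55 (adjusted p = 0.147). With a call made at unadjusted p under 0.05 together with a log2 fold change beyond 1 in size, Cav1 was the 1 member that passed, beside 1.76% of all genes tested.

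In siCont replicate 3, 9 genes stood at 2 or more times the level of every other library, the fewest of any of the 6 libraries, in which this number ran from 9 to 23. Cav2 had 8.39, 11.7 and 12.3 CPM in siCD36 and 6.86, 8.58 and 8.63 CPM in siCont. The Cav2 libraries overlapped and siCont replicate 3 was close to siCont replicate 2. Its log2 fold change was 0.43 (95% interval -0.01 to 0.87, adjusted p = 0.207, edgeR).

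**Figure D2:**
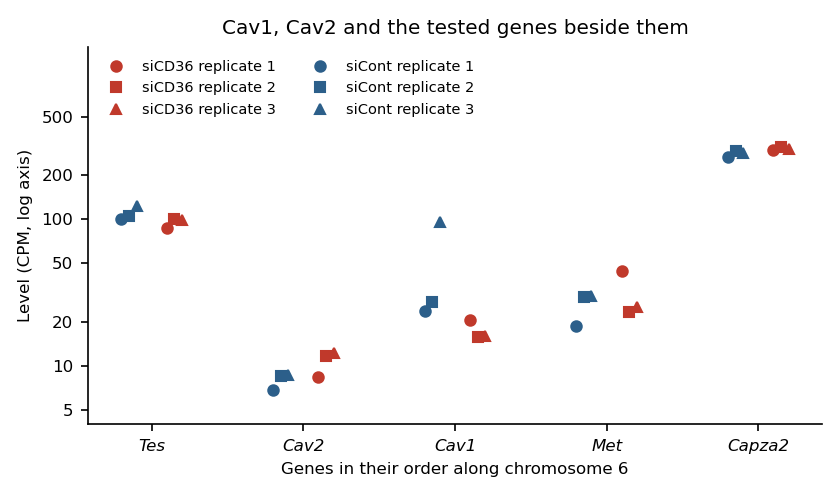
CPM of Cav1, Cav2 and the nearest tested genes on chromosome 6 in each library, on a log axis with 1 point per library. Cav1 of siCont replicate 3 lies at 96.6 CPM while Cav2 and Met of the same library lie at 8.63 and 30.2 CPM.

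Neighbouring genes were measured in the same libraries. The closest annotated gene after Cav1, Gm29591, had 0 to 1 counts, and D830026I12Rik, the closest before Cav2, had 0 counts in all libraries. The antisense gene Gm15581, which spans Cav1 and Cav2, also had 0 counts. Of the nearest tested genes, Tes, which encodes a focal adhesion protein, had 87.8, 101 and 98.4 CPM in siCD36 and 99.9, 106 and 124 CPM in siCont. Met, the hepatocyte growth factor receptor gene, had 44.1, 23.3 and 25.1 CPM in siCD36 and 18.8, 29.3 and 30.2 CPM in siCont, so that siCD36 replicate 1 was the high library. For Capza2, which encodes an actin capping protein, the log2 fold change was 0.11 (adjusted p = 0.322). The log2 fold changes of Tes and Met were -0.20 and 0.24 (adjusted p = 0.274 and 0.659), and both genes overlapped between groups.

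Cavin4 had 251, 250.1 and 258 CPM in siCD36 and 339, 342 and 312 CPM in siCont. All siCD36 libraries lay below all siCont libraries, and the siCD36 values were tight around their mean (253 ± 4.09 against 331 ± 16.8 CPM, SD, n = 3). Cavin4 fell by 0.39 on the log2 scale (95% interval -0.53 to -0.24, SE 0.0613, adjusted p = 0.0274, edgeR). Its call held without siCD36 replicate 1 (adjusted p = 0.0355) and was lost without siCD36 replicate 2 (adjusted p = 0.125), siCD36 replicate 3 (0.0834), siCont replicate 1 (0.0734), siCont replicate 2 (0.125) or siCont replicate 3 (0.0502).

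The cavins found in most tissues overlapped between the groups in CPM, while in FPKM Cavin1 did not (70.4 to 73.9 in siCD36 and 65.0 to 70.1 in siCont). Cavin1 had 287, 281 and 290.0 CPM in siCD36 and 282, 262 and 278 CPM in siCont, a log2 fold change of 0.06 (95% interval -0.07 to 0.20, adjusted p = 0.539). Cavin2, whose product bends membrane, had 30.8, 43.0 and 45.3 CPM against 38.9, 40.3 and 49.1 CPM, a log2 fold change of -0.11 (95% interval -0.51 to 0.30, adjusted p = 0.740). Cavin3, which encodes a partner of protein kinase C delta, had 73.9, 69.9 and 69.4 CPM against 62.4, 69.5 and 75.2 CPM, a log2 fold change of 0.04 (95% interval -0.16 to 0.25, adjusted p = 0.799). The intervals of Cavin1 and Cavin3 leave no room for a fall as large as the estimate for Cavin4, whereas that of Cavin2 does. The genes that overlap Cavin2 and Cavin3 on the opposite strand had at most 36 and 19 counts.

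Ehd2, whose ATPase product keeps caveolae at the surface, had 217, 223 and 224 CPM in siCD36 and 212, 231 and 245 CPM in siCont. The groups overlapped, with a log2 fold change of -0.05 (95% interval -0.21 to 0.11, adjusted p = 0.694). Pacsin2, a membrane-bending protein gene, had 191, 189 and 193 CPM in siCD36 and 215, 224 and 220 CPM in siCont. The Pacsin2 groups did not overlap, with a log2 fold change of -0.20 (95% interval -0.33 to -0.08) that did not pass after adjustment (adjusted p = 0.0760, edgeR). Gm5417, a pseudogene inside Pacsin2 on the same strand, had 81 to 142 counts, against at least 12396 for Pacsin2.

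Pacsin3, the muscle-enriched PACSIN gene, had 107, 81.2 and 79.4 CPM in siCD36 and 123, 111 and 112 CPM in siCont. Its siCD36 replicate 1 was the high one of its group, although still below every siCont library. The log2 fold change was -0.37 (95% interval -0.67 to -0.07, adjusted p = 0.137, edgeR). Without siCD36 replicate 1 it was -0.52 and passed (adjusted p = 0.0234). Over the fits that left out 1 of the other 5 libraries, its adjusted p was at least 0.218. Gm17281, which overlaps Pacsin3 on the opposite strand, had 12 to 53 counts.

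**Figure D3:**
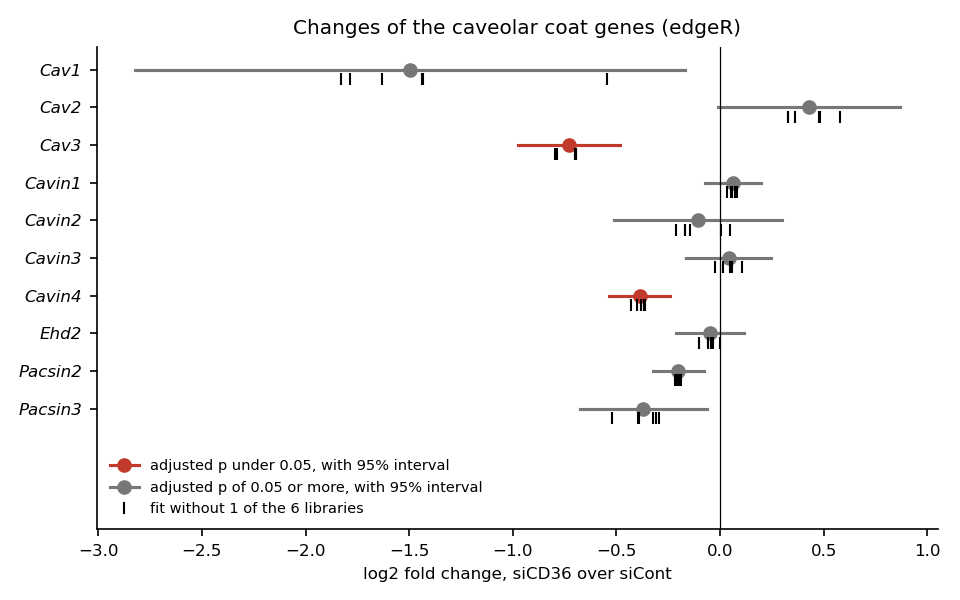
Log2 fold change of each coat gene, siCD36 over siCont, with its 95% interval from edgeR's quasi-likelihood fit. Cav3 (-0.73) and Cavin4 (-0.39) passed at an adjusted p under 0.05, while Cav1 has the widest interval (-2.82 to -0.17).

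Shares within a library do not depend on the scaling between libraries. Cavin4 made up 47.6%, 47.5% and 47.7% of the summed cavin FPKM in siCD36 and 56.2%, 56.5% and 52.2% in siCont. Its share was lower in all 3 siCD36 libraries, with a mean difference of -7.36 percentage points and an exact permutation p of 0.1, 2-sided. That is the minimum for groups of 3, so no share or ratio could pass here. Adjusted over the 12 shares and ratios compared, it was 0.2. The cavin sum itself was 233 ± 7.15 FPKM in siCD36 and 258 ± 8.12 FPKM in siCont (SD, n = 3).

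Cav3 made up 66.1%, 64.2% and 63.6% of the summed caveolin FPKM in siCD36 and 74.5%, 68.8% and 46.1% in siCont. The groups overlapped, siCont replicate 3, the library with high Cav1, being the lowest of all, and the mean difference of 1.47 percentage points was far inside the spread (exact permutation test, 2-sided, p = 1, adjusted 1). Without that library, the difference was -7.05 percentage points. Pacsin3 made up 38.8%, 32.8% and 31.8% of the Pacsin2 and Pacsin3 sum in siCD36 and 39.2%, 36.0% and 36.5% in siCont, and these shares overlapped (exact permutation test, 2-sided, p = 0.3, adjusted 0.4).

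**Figure D4:**
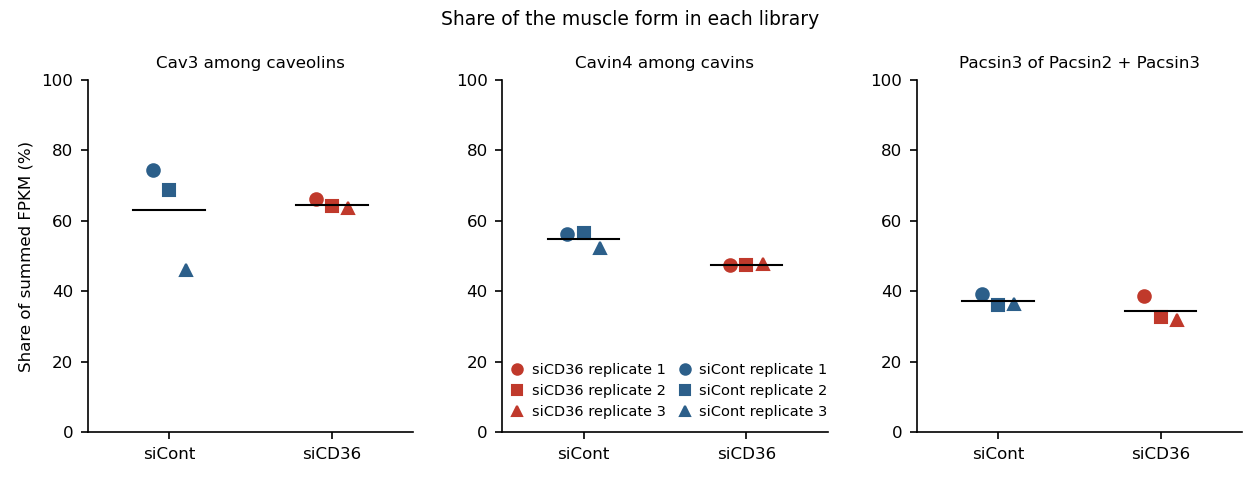
Share of Cav3 among the caveolins, of Cavin4 among the cavins and of Pacsin3 in the pair, in percent of summed FPKM, with 1 point per library and a line at the group mean. The Cavin4 shares of siCD36 (47.5% to 47.7%) lie below those of siCont (52.2% to 56.5%), while the other shares overlap.

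Ratios between coat genes were compared in the same way. The ratio of Cav3 to Cavin1 FPKM was 0.190 in siCD36 and 0.329 in siCont, that of Cavin4 to Cavin1 was 1.55 and 2.11, and that of Cav3 to Cavin4 was 0.123 and 0.156. Each of these ratios was lower in all siCD36 libraries than in any siCont library (exact permutation test, 2-sided, p = 0.1, adjusted 0.2 for each). Cav3 and Cavin4 had already been called as fallen in the same libraries, so these tests add no support to those calls. Unlike the shares, these ratios were not among the comparisons set beforehand. Muscle genes picked with their values in view were set beside them. The ratio of Cav3 to Myh3, the embryonic myosin heavy chain gene, was 0.0432 in siCD36 and 0.0464 in siCont, and the libraries overlapped (exact permutation test, p = 0.4, adjusted 0.48). The ratio of Cavin4 to Myh3 was higher in siCD36, at 0.35 against 0.298, with no overlap (exact permutation test, p = 0.1, adjusted 0.2). Myh3 was the 1 of 16 myotube markers called as fallen. Its fall was thus built into both Myh3 ratios, and their tests decide nothing about the coat genes. To Acta1, skeletal actin, the ratio of Cav3 was 0.00409 in siCD36 and 0.00517 in siCont (exact permutation test, p = 0.2, adjusted 0.343), and that of Cavin4 was 0.0336 and 0.0331 (exact permutation test, p = 0.9, adjusted 0.982), both overlapping.

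Markers of the myotube state were set beside the coat genes. Of the 16 myotube markers tested, 1 fell (Myh3, log2 fold change -0.62, adjusted p = 0.0210), 0 rose and 12 had an estimate below 0, with a median of -0.36. Among all genes tested, 3.06% fell. CPM did not overlap between the groups for 5 of the 16, beside 32.4% of all genes tested. Their summed level was 11961 to 15984 FPKM in siCD36 and 15832 to 19692 FPKM in siCont, and these ranges overlapped. Of the 9 markers of myoblasts and cycling cells, 5 were tested and 2 rose, beside 2.20% of all genes tested. The 2 were Myf5, an early muscle regulator (0.93, adjusted p = 0.0274), and Ccna2, cyclin A2 (1.02, adjusted p = 0.0166). All 5 estimates were above 0, with a median of 0.93, and CPM did not overlap between the groups for 4 of the 5. The summed level of the 9 was 21.9 to 23.7 FPKM in siCD36 and 12.2 to 14.5 FPKM in siCont. Leaving out 1 library kept the call in 2 of 6 fits for each of these genes: Myh3 and Ccna2 without siCD36 replicates 1 and 3, and Myf5 without siCD36 replicate 1 and siCont replicate 3. The highest adjusted p was 0.113 for Myh3, 0.116 for Myf5 and 0.0852 for Ccna2. Their part in the Cav3 and Cavin4 results was not tested.

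Markers of other cell types, among them some that carry many caveolae, were also measured. Their counts stand beside the 2.20% of all tested genes that rose and the 3.06% that fell. Of 6 adipocyte markers, 4 were at 0 in all libraries and 0 were tested. Of 7 endothelial markers, 6 averaged under 0.1 FPKM, and the remaining one, Tek, rose (log2 fold change 1.15, adjusted p = 0.0216), with sums of 2.86 to 3.95 against 1.34 to 1.81 FPKM. Of 6 smooth muscle markers, 4 were tested, 3 of them with an estimate below 0, at a median of -0.29. Acta2, smooth muscle actin, rose (0.47, adjusted p = 0.0320) and Smtn, smoothelin, fell (-0.44, adjusted p = 0.0284). The summed level, to which Acta2 gave most with a mean of 1654 FPKM, was 2010 to 2211 against 1499 to 1627 FPKM. Tek, Acta2 and Smtn each kept the call in 1 of 6 fits with 1 library left out, that without siCD36 replicate 1, with an adjusted p of up to 0.0895, 0.159 and 0.125. Of 7 fibroblast markers 5 were tested and 0 passed, with sums of 682 to 704 against 608 to 746 FPKM, and 0 of 6 macrophage markers were tested. CPM did not overlap between the groups for Tek, 3 of the 4 smooth muscle and 1 of the 5 fibroblast markers tested. Among all genes tested, 32.4% did not overlap. The part of these markers in the caveolin values was not tested.

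The proteins that work next to caveolae were followed in lists by function, whose counts stand beside the 3.06% of all tested genes that fell and the 2.20% that rose. With at most 2 called genes a list, these counts show nothing about a list as a whole. The 3 other EHD genes tested did not pass and had estimates below 0, -0.23 for Ehd1 (adjusted p = 0.127), -0.35 for Ehd3 (0.0671) and -0.28 for Ehd4 (0.149). CPM did not overlap between the groups in these 3 genes, as in 32.4% of all genes tested. Pacsin1, the neuronal PACSIN gene, was under the filter.

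Of 17 genes for receptors, kinases and other proteins that work at caveolae, 14 were tested, 1 rose and 1, Cd36 itself, fell, with a median of 0.00. Bmpr2, the type II bone morphogenetic protein receptor gene, had 105, 113 and 115 CPM in siCD36 and 82.9, 83.3 and 81.5 CPM in siCont, and rose by 0.43 on the log2 scale (adjusted p = 0.0231). Insr, the insulin receptor gene, had 7.82, 13.2 and 12.6 CPM in siCD36 and 15.9, 46.1 and 19.2 CPM in siCont. Its groups did not overlap, as in 32.4% of all genes tested, and siCont replicate 2 stood apart. The log2 fold change of -1.27 did not pass (adjusted p = 0.140, unadjusted p = 0.0256, edgeR). At the thresholds of the study's methods, on unadjusted p and fold change, Insr passed, beside 1.76% of all genes tested.

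Of the 5 raft scaffold genes 0 passed, at a median of 0.07, with Flot1 at 0.13 (adjusted p = 0.552) and Flot2 at -0.25 (0.163). Of 9 T-tubule genes tested (median -0.10), 1 fell, Cacnb1, the beta subunit gene of the muscle calcium channel (-0.65, adjusted p = 0.0383). Bin1, the amphiphysin that tubulates the membrane, had -0.10 (0.592). Of 12 membrane repair genes (median -0.01), 2 fell, Ahnak, which encodes a large annexin-binding scaffold (-0.55, adjusted p = 0.0157), and Capn1, a calcium-dependent protease gene (-0.75, 0.0237). Dysf, dysferlin, had 0.04 (0.829), and Trim72, which encodes the repair protein MG53 that binds CAV3, had -0.38 (0.109).

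Of 10 genes of the dystrophin complex tested (median -0.05), 1 rose, Sspn, sarcospan (0.48, adjusted p = 0.0358). Of 16 genes of the clathrin coat, the other main route of uptake, 1 fell, Ap2a2, an adaptor subunit gene (-0.34, adjusted p = 0.0355), with a median of -0.17, while Cltc, the clathrin heavy chain gene, had -0.11 (0.649). Between the groups, CPM did not overlap for 10 of these 16 clathrin genes, the 5 of 10 in the caveolar coat and 32.4% of all genes tested. In the other lists it did not overlap for 6 of 14 cargo, receptor and kinase genes and 2 of 5 raft scaffold genes. The same held for 3 of 9 T-tubule genes, 5 of 12 repair genes and 2 of 10 dystrophin complex genes. The fit without siCD36 replicate 1 called 1081 of all genes tested, against 20 to 144 with another library left out. Bmpr2, Cacnb1, Capn1, Sspn and Ap2a2 each kept the call in that fit only, 1 of 6 with 1 library left out. Their adjusted p rose to 0.113 for Bmpr2, 0.141 for Cacnb1, 0.111 for Capn1, 0.143 for Sspn and 0.158 for Ap2a2. Ahnak kept it in 3 of 6, and lost it without siCD36 replicates 2 and 3 and siCont replicate 2, with an adjusted p of up to 0.0897.

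**Figure D5:**
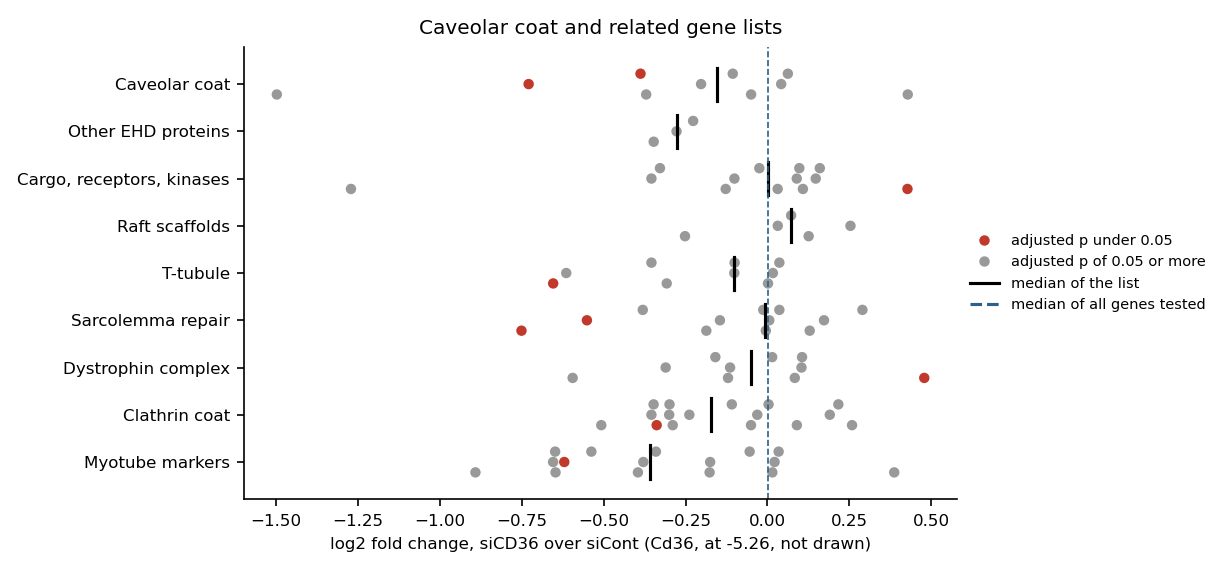
Log2 fold change of every tested gene in the caveolar coat and the related lists, with 1 point per gene, the called genes in colour and a line at each list median. The coat median is -0.15, that of the myotube markers -0.36 and that of the cargo and receptor genes 0.00, Cd36 being counted but not drawn.

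The genes whose pattern over the 6 libraries lay closest to that of Cav3, among 6215 genes averaging 5 FPKM or more, those named only by a clone or predicted-gene number and the mitochondrial genes left out, were Ptges3l, Enho, which encodes the peptide adropin, and Nes. Their root mean square differences from the centred log2 CPM profile of Cav3 were 0.0445, 0.0466 and 0.0702. Nes, which encodes the intermediate filament protein nestin, had 729, 724 and 711 CPM in siCD36 and 1239, 1166 and 1192 CPM in siCont. For Cav1 the closest were Evi2a (0.526), Retreg3 (0.561) and Rpl17-ps5 (0.581), so that no gene came as near to it as these to Cav3. Evi2a was also highest in siCont replicate 3, at 49.8 CPM against 17.1 to 21.8 CPM in the other libraries.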

How the data were processed

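RNA-seq of 6 C2C12 samples, 3 siCD36 and 3 siCont, grouped by the sample labels, was analysed, with siRNA dose and time taken from the study's methods. The labels describe mRNA enrichment with oligo(dT). Per the methods, paired-end reads were aligned by the authors with HISAT (version 2.0), FPKM came from StringTie and edgeR was the test. The deposited table holds raw counts, which the authors had not normalized, and FPKM, scaled by the authors for length and depth. The tool for counting, its annotation, its strand setting and the build used were not given in the sources used here, so reads of overlapping genes on opposite strands cannot be told apart. All 55450 gene IDs were found in GENCODE M21 (GRCm38), 52543 (94.8%) with identical coordinates.

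Genes averaging 1 FPKM or more were fitted by edgeR 4.0.16 in R 4.3.3 (TMM, glmQLFit, glmQLFTest, condition only) with Benjamini-Hochberg adjustment over every gene tested. A standard error is the size of the log2 fold change over the root of F. Shares and ratios of FPKM were compared by exact permutation tests. No 2 libraries held the same counts (chi-square per gene of at least 74.4). Alternatives were limma 3.58.1 on log2(FPKM + 1) or log2(FPKM + 0.1), DESeq2 1.42.0, other scalings and filters, robust estimation, a replicate block and each library left out. The scripts were tested on simulated data.

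The members and lists were chosen with earlier results of these data known. Named genes were all members, Cd36, the called genes of each list (up to 4 by adjusted p), a few fixed partners of the coat, the genes next to Cav1 and Cav2, and the 3 genes closest in pattern to Cav3 and to Cav1. Ehd3, Myh3 and Acta1 as references for ratios, and Capza2, Tes and Met as the nearest tested genes, were named after their values were seen.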

Additional observations from a re-analysis of the deposited data

How the results depend on the processing

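Cav3 and Cavin4 kept their direction in all 11 alternative fits and passed in 10 of them, at log2 fold changes of -0.75 to -0.66 for Cav3 and -0.40 to -0.35 for Cavin4. The exception was the replicate block, in which 0 members passed, Cav3 being at -0.73 (adjusted p = 0.0518) and Cavin4 at -0.39 (0.0596). The sources do not say whether equal numbers pair the samples. Deviations of same-numbered libraries correlated at 0.143, -0.0341 and 0.0450, and those of differently numbered ones at -0.120 to 0.0933. With 3 libraries a group these correlations cannot decide whether the block applies. Members called were 2 in edgeR and 3 in DESeq2, which added Pacsin2 (-0.20, adjusted p = 0.0215). At the thresholds of the study's methods the 1 member called was Cav1. Cav3 and Cavin4 fell short of the absolute log2 fold change of 1 set there. With 1 library left out, 0 to 3 members were called: 3 without siCD36 replicate 1 and 0 without any of the others. Over those 6 fits the log2 fold change was -0.80 to -0.69 for Cav3, -0.43 to -0.36 for Cavin4, -0.52 to -0.29 for Pacsin3, -0.21 to 0.047 for Cavin2 and -0.025 to 0.11 for Cavin3. Uncalled signs turned for Cavin2 (0.047 without siCD36 replicate 1, 0.0048 with siCont replicate 3 left out) and for Cavin3 (-0.025 without siCont replicate 1). The difference in the Cav3 share of caveolin FPKM was -7.05 percentage points without siCont replicate 3 and up to 7.15 with another library left out (without siCont replicate 1). The siCont shares were 74.5%, 68.8% and 46.1% in replicates 1, 2 and 3, so the sign turned on siCont replicate 3. Why Cav1 was high in that library was not tested. Counts of genes called over the whole table were 621 in edgeR, 1677 in DESeq2, 327 with no filter and 199 with the replicate block. They were 1081 without siCD36 replicate 1 and 20 to 144 with another library left out. Of the 6 called genes of the related lists besides Cd36, 2 passed under the block and 3 with no filter. Cav2 was under the filter of 5 FPKM and has no value there. Cav2 had the lowest raw counts of the members, 395 to 901.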
